A study of Mus musculus with 32 samples.

Results

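Sorl1, Fras1, Man2a2, Dct, Moxd1, Tiam2, Vldlr, Fxyd6, Kcnh2 and Grn are 10 mouse genes whose liver signal, or whose response to lipopolysaccharide (LPS), differed between E2f1 knockout and wild-type mice late after LPS in an earlier analysis of the same arrays. They were chosen by their measured 20 h values (the KO-minus-WT difference at 20 h, or that difference less the one on saline) and taken by gene name, 10 of the 27827 names on the array, and are read by 17 of its 41174 probes. All 10 genes and 16 of the 17 probes stood well above background on at least 4 arrays, the minimum for testing; the exception is a second Dct probe. Because the 20 h values chose the genes, the genotype differences at 20 h and on saline, the differences between responses and the LPS effects within a genotype are given here as descriptions with no test. The tested comparisons are knockout against wild type at 6 h, and LPS against saline and 20 h against 6 h, each as the mean of both genotypes.

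The study measured liver RNA from 32 mice, 1 array per mouse, and concerns E2F1 in the innate response to systemic LPS, the endotoxin of Gram-negative bacteria. Wild-type mice (WT; genotype E2F1+/+, strain B6x126 F2) and knockout mice (KO; E2F1-/-, under a strain label that joins B6, 129 and the genotype) received saline (6 and 6 mice, labelled 20 h), LPS with collection at 6 h (4 and 4 mice) or LPS with collection at 20 h (6 and 6 mice). E2F1 is a transcription factor that controls entry into the S phase of the cell cycle, and the label E2F1-/- names no cell type, so the loss is not limited to hepatocytes. The strain label changes with the genotype, so genotype and strain cannot be told apart, and the 6 h comparison with saline also spans a difference in labelled time. Dose, sex, age and the deleted part of the gene are not given in the sources used here.

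The 10 genes have no pathway in common. Sorl1 encodes a sorting receptor of the VPS10 family that steers cargo between the Golgi and endosomes and also carries repeats of the LDL receptor kind, and Vldlr encodes a lipoprotein receptor that binds triglyceride-rich particles and reelin. Grn encodes progranulin, a secreted and lysosomal glycoprotein abundant in macrophages. Kcnh2 encodes a voltage-gated potassium channel known from the repolarisation of heart muscle, and Fxyd6 a small membrane protein that modulates the sodium pump. Dct encodes dopachrome tautomerase, a melanin enzyme of pigment cells, Moxd1 a relative of the copper enzyme dopamine beta-hydroxylase, and Man2a2 a Golgi mannosidase that trims N-linked glycans. Tiam2 encodes an exchange factor for the GTPase Rac1, and Fras1 an extracellular matrix protein of the basement membrane that is mutated in Fraser syndrome. In whole liver, fewer cells of a type and less RNA per cell cannot be told apart.

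Each probe is a 60-base oligonucleotide, placed by the array's design on the mouse assembly mm9. 6 of the 17 are shown, because the results below turn on where and what they read: both Grn probes, which behaved differently from each other; the Kcnh2 probe; the Dct probe that stood above background on no array; and the Fxyd6 and Man2a2 probes that span introns. Capitals mark the longest run of bases shared by any 2 of the 17 probes, in 136 pairs compared on the same strand.
Grn A_52_P508750: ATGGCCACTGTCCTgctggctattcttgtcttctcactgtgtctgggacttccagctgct
Grn A_51_P192800: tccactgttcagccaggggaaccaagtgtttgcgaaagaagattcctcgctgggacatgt
Kcnh2 A_51_P131175: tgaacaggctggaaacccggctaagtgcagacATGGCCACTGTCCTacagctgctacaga
Dct A_52_P550629: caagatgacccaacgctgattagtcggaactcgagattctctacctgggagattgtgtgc
Fxyd6 A_51_P490247: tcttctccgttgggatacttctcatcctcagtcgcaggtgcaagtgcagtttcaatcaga
Man2a2 A_52_P531068: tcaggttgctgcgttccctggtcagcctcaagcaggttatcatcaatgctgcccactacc
The shared run is 14 bases long, against 10 bases in the next closest pair, and no probe on the array holds it beside these 2 (2 of 41174). The Grn probe that carries it lies at chr11:102294591-102294650 and the other Grn probe at chr11:102297692-102297751, both on the plus strand. The Kcnh2 probe lies at chr5:23827188-23827460 on the minus strand, a span longer than the probe, and the Dct probe shown at chr14:118438837-118438896 on the minus strand. The Fxyd6 probe shown spans chr9:45198905-45199673 on the plus strand and the Man2a2 probe chr7:87507834-87508043 on the minus strand. The G and C content of the 17 probes ranged from 35.0% to 55.0%.

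Signals are log2 values of the scanner's processed signal with each array's 75th percentile set to 0. A probe is called dim on an array where the scanner software did not mark it well above background. The 75th percentile ranged from 281 to 1144 and the spots well above background from 20203 to 28891 per array, and the number of arrays limits the precision. KO saline 1 (0.907), KO LPS 6 h 1 (0.922), KO LPS 20 h 4 (0.936) and KO LPS 20 h 6 (0.952) had the lowest correlation with the mean of the rest of their group, and values that rest on them are also given without them. Hepatocyte markers (6 of 7 measured, among them Alb and Cyp2e1) had a summed log2 signal of 9.96 to 11.7 over the 32 arrays; since the extraction protocol names lung tissue, 6 lung markers were checked too. Of these Sftpb, Sftpc and Ager did not pass the filter, and the other 3 had a summed signal of -3.85 to 1.29. Since the deleted part is not given, whether the 2 E2f1 probes lie in it is not known, and neither read lower in KO after LPS. At 6 h A_52_P587611 read -3.83 in WT and -2.30 in KO and A_51_P120636 -5.01 and -3.01 (means, n = 4), and at 20 h the first read -5.57 ± 0.88 in WT (SD, n = 5, 1 outlier spot left out) and -2.05 ± 1.57 in KO (SD, n = 6).

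**Figure D1:**
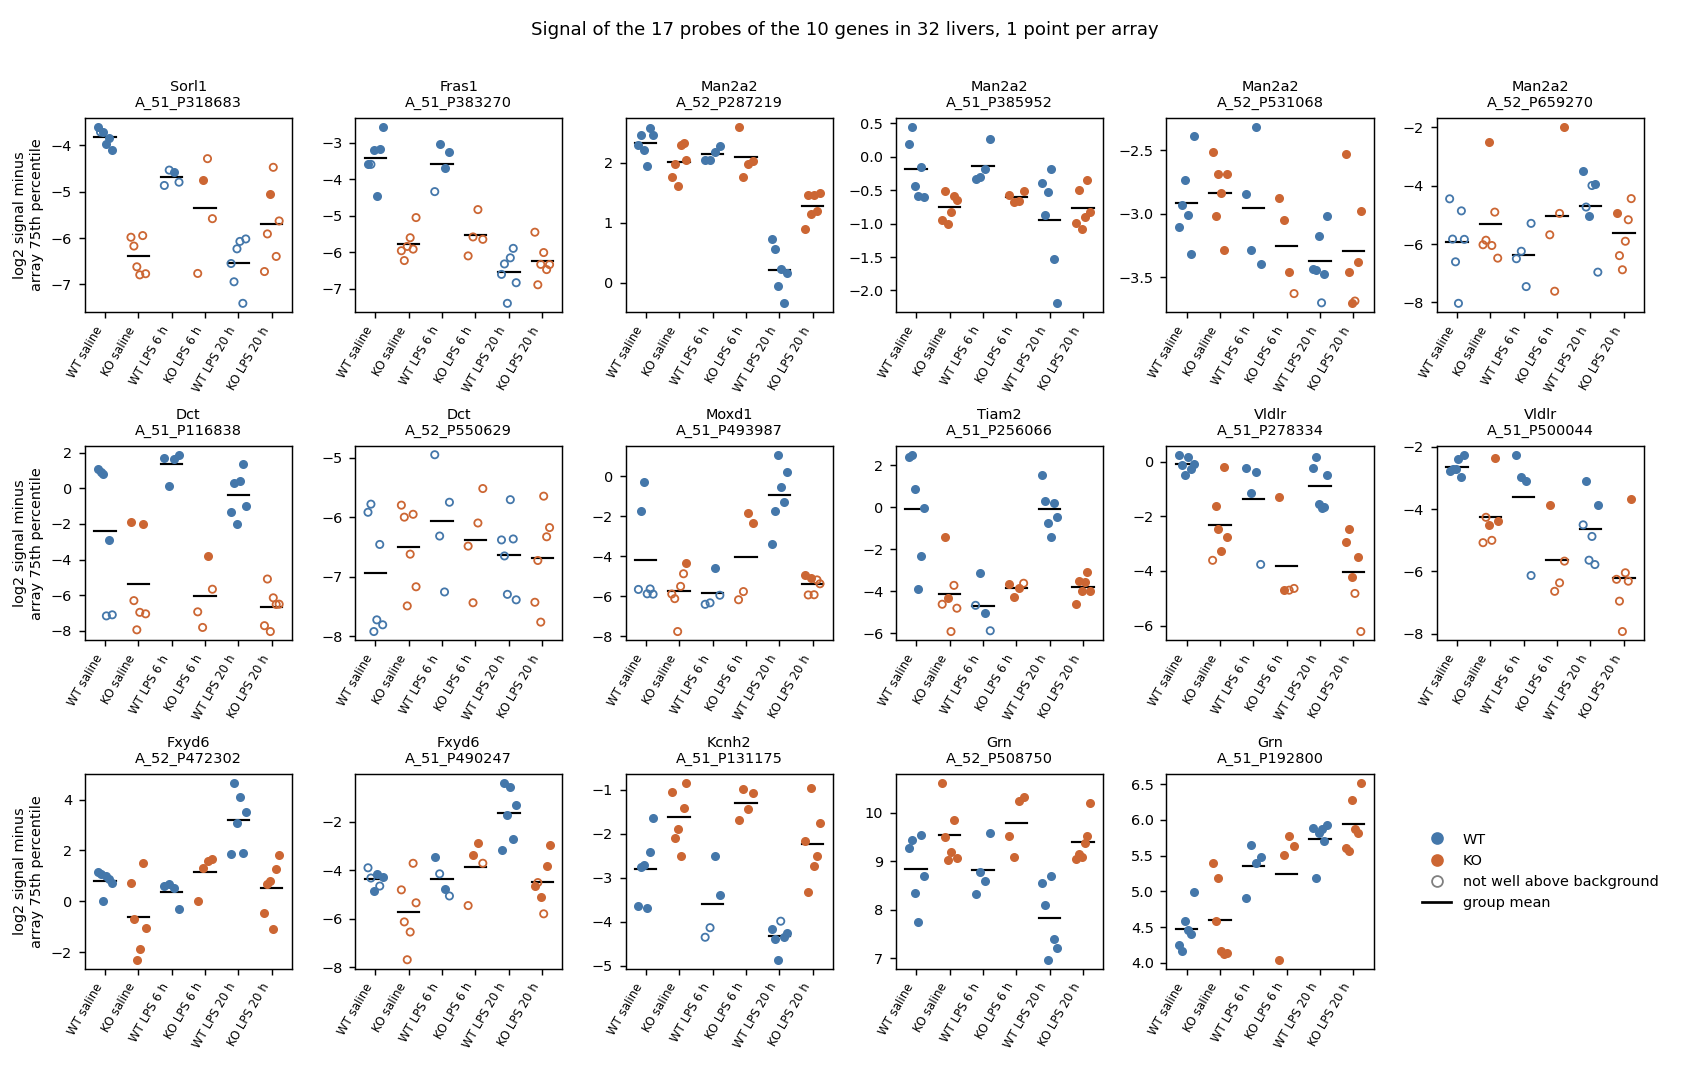
Log2 signal minus the array's 75th percentile for each of the 17 probes (1 panel per probe) in the 6 groups, 1 point per mouse; filled points are well above background, open points are dim, and bars are group means. At LPS 20 h the WT and KO points are apart for 8 probes, and for the Dct probe A_52_P550629 all 32 points are open.

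At 20 h after LPS, WT and KO did not overlap for 8 of the 17 probes (0.526% of all probes tested), in a contrast that was part of the choice of the genes. 3 of these were higher in KO (Kcnh2, Grn A_52_P508750 and Man2a2 A_52_P287219) and 5 lower (Dct, Moxd1, Tiam2, Vldlr A_51_P278334 and Fxyd6 A_52_P472302). The smallest difference among the 8 was that of Man2a2, 1.06 on the log2 scale, and the largest difference among the probes that overlapped was that of the second Fxyd6 probe, -2.83. Sorl1 and Fras1 overlapped at 20 h. Their difference in response, the KO-minus-WT difference at 20 h less that on saline, was 3.40 for Sorl1 and 2.63 for Fras1. These are fitted values in which dim arrays enter and which measure no fold. By which of the 2 contrasts each gene was chosen is not given. The median KO-minus-WT difference over the 16 probes was -0.42 at 20 h and -1.38 on saline, against -0.02 and -0.01 over all probes.

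At 6 h, in mice that did not enter the choice, 3 of the 16 member probes passed the test (1.07% of all probes tested): Kcnh2 was higher in KO (0.691% of all probes were called higher), and Dct and Fras1 were lower (0.381%). The Fras1 probe passed the filter only through WT arrays. The Dct probe was well above background on 2, 1 and 0 KO arrays on saline, at 6 h and at 20 h. These are together fewer than the minimum of 4, so it too passed only through WT, where it is high. Neither call is therefore support for the count. The test was limma's, two-sided, with a threshold of 0.05 on p-values adjusted over all 28345 probes by the method of Benjamini and Hochberg, and it measures against the spread between mice. The groups did not overlap at 6 h for 4 of 17 probes (6.99%), these 3 and Man2a2 A_51_P385952. The median difference over the member probes was -0.08, against -0.05 over all probes. Without KO saline 1 and KO LPS 6 h 1, Vldlr A_51_P278334 passed too (-3.30, adjusted p = 0.0265). The Kcnh2, Dct and Fras1 calls held, and the other probes did not pass, among them Vldlr A_51_P500044 (-2.62, adjusted p = 0.105), Grn A_52_P508750 (1.07, adjusted p = 0.28) and Fxyd6 A_52_P472302 (1.14, adjusted p = 0.542), and that of Grn A_51_P192800 turned to 0.28 (adjusted p = 0.744). With 1 array left out at a time the count lay between 1 and 4, and without WT LPS 6 h replicate 1 it was 1, Fras1.

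**Figure D2:**
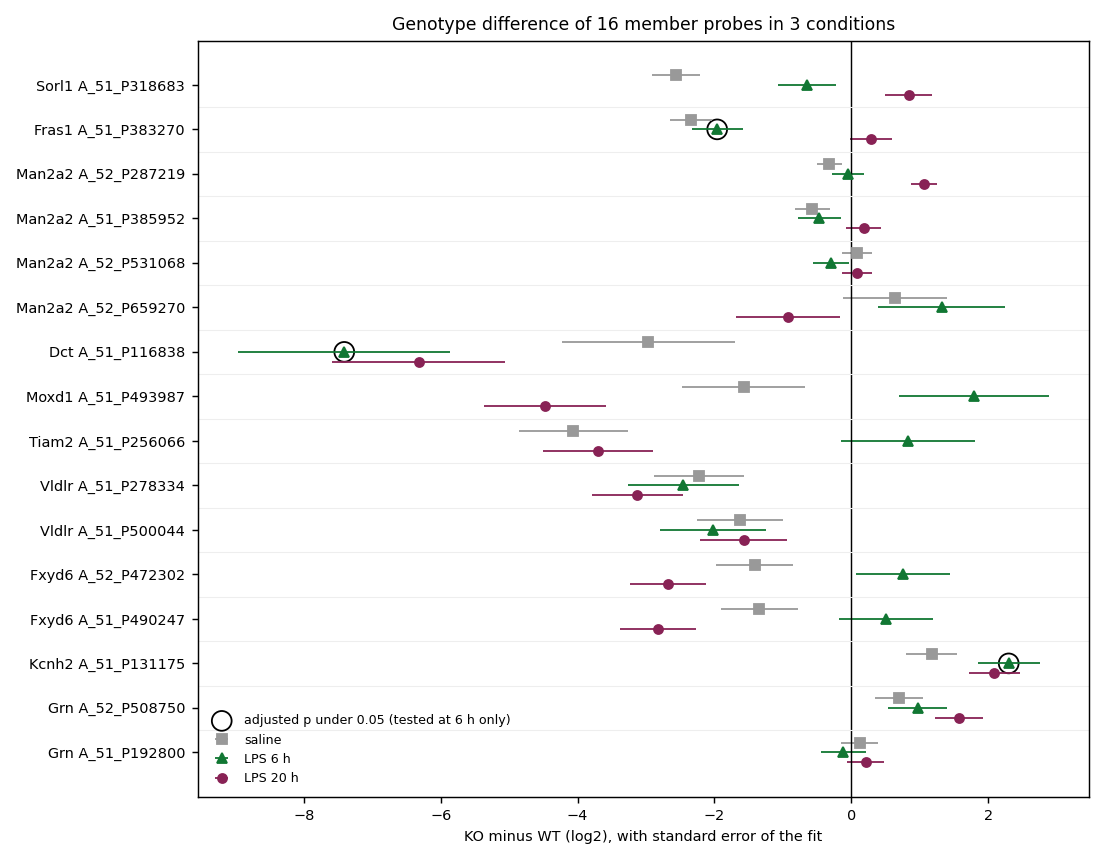
KO minus WT on the log2 scale with the standard error of the fit for the 16 tested probes on saline (squares), at LPS 6 h (triangles) and at LPS 20 h (circles). Rings mark the 3 probes called at 6 h, the only condition tested; Moxd1, Tiam2 and both Fxyd6 probes lie left of 0 on saline and at 20 h and right of 0 at 6 h.

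Kcnh2, the potassium channel, was higher in KO in all 3 conditions. At 6 h the 4 WT mice read -4.35, -4.13, -2.49 and -3.39 and the 4 KO mice -1.68, -0.98, -1.45 and -1.06. Every KO mouse lay above every WT mouse, and the probe was dim in the first 2 WT mice. The difference was 2.30 ± 0.46 on the log2 scale (adjusted p = 0.0104, limma). Without the 2 KO arrays that stand apart on saline and at 6 h it was 2.43 (adjusted p = 0.0115). It was 2.05 without WT LPS 6 h replicate 1 (adjusted p = 0.0573). Within the 3 scan dates it was 1.51, 2.14 and 2.56. At 6 h date 1 held WT replicate 3 and KO replicate 2, and date 2 WT replicate 4 and KO replicates 3 and 4. Date 3 held WT replicates 1 and 2 and KO replicate 1. With a single mouse of a genotype on each date, these fits cannot decide the call. The call also ended with the slide as a block (1.96, adjusted p = 0.14) and with only the groups compared in the fit (adjusted p = 0.119). At 20 h WT ranged from -4.86 to -3.98 (median -4.30) and KO from -3.32 to -0.97 (median -2.34), a difference of 2.09 ± 0.37. On saline the groups overlapped (1.21% of all probes did not), with -3.69 to -1.63 in WT (median -2.73) and -2.50 to -0.84 in KO (median -1.65).

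Grn gave 2 different pictures. The probe A_52_P508750 read 6.97 to 8.70 in WT at 20 h (median 7.74) and 9.04 to 10.20 in KO (median 9.26). All 6 KO mice lay above all 6 WT mice, by 1.58 ± 0.35 on average. The probe A_51_P192800, which lies further along the gene, gave 5.19 to 5.93 in WT (median 5.85) and 5.56 to 6.52 in KO (median 5.85). These ranges overlapped, with a difference of 0.21 ± 0.27. At 6 h the first probe differed by 0.97 (adjusted p = 0.385) and the second by -0.12 (adjusted p = 0.956), and neither passed. Deviations of the 2 probes from their group means correlated at r = 0.23 over the 32 arrays.

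Grn A_52_P508750 was the probe of rank 32 in mean signal among 41174, so it is also a reading of the top of the scale. Its deviations from the group means correlated at r = 0.86 with the mean of the 100 brightest probes. Of those 100 probes 96 were higher in KO than WT at 20 h, with a median difference of 0.27, against 0.07 at 6 h and 0.04 on saline. Their part in the Grn difference was not tested. The Kcnh2 probe, with which it shares the run in capitals, correlated with it at r = 0.26 in deviations over the 32 arrays.

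The membrane regulator Fxyd6 was lower in KO at 20 h by both of its probes. A_52_P472302 ranged from 1.85 to 4.65 in WT (median 3.30) and from -1.09 to 1.84 in KO (median 0.74), with the highest KO mouse just below the lowest WT mouse. The intron-spanning probe A_51_P490247 ranged from -3.15 to -0.39 in WT (median -1.51) and from -5.79 to -2.94 in KO (median -4.57), where the groups overlapped. The differences were -2.68 ± 0.56 and -2.83 ± 0.56. At 6 h the order was turned, with KO above WT by 0.76 (adjusted p = 0.784) and 0.51 (adjusted p = 0.883), neither past the threshold. The first probe read 0.59, 0.68, 0.54 and -0.31 in WT and 0.00, 1.29, 1.58 and 1.68 in KO at that time. The 2 probes moved together between mice, with r = 0.91 between their deviations.

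Vldlr, the lipoprotein receptor, was lower in KO than WT in every condition by both probes. On saline A_51_P278334 ranged from -0.50 to 0.25 in WT (median -0.12) and from -3.61 to -0.18 in KO (median -2.61), where a single KO mouse, replicate 5, reached the WT range. At 6 h WT read -0.24, -1.15, -0.37 and -3.76 and KO -1.28, -4.71, -4.71 and -4.64, so WT replicate 4 and KO replicate 1 each lay with the other group. The difference of -2.45 ± 0.81 did not pass (adjusted p = 0.162) but did without KO LPS 6 h replicate 1 (-3.30, adjusted p = 0.0412). Within the 3 scan dates it was -4.34, -0.91 and -0.59, each with a single mouse of a genotype. The only WT mouse on date 2 was replicate 4, and the only KO mouse on date 3 was replicate 1. At 20 h WT ranged from -1.70 to 0.17 (median -1.02) and KO from -6.22 to -2.48 (median -3.87), a difference of -3.12 ± 0.66 with no overlap. A_51_P500044 was dimmer, with a difference of -2.02 at 6 h (adjusted p = 0.267) and -1.57 ± 0.63 at 20 h, where 4 of 6 WT and 5 of 6 KO arrays were dim.

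Sorl1, the sorting receptor, separated the genotypes on saline and not after LPS. On saline WT ranged from -4.09 to -3.59 (median -3.78, 5 of 6 arrays well above background) and KO from -6.79 to -5.95 (median -6.40, all dim), so KO was at least 2.85-fold lower. Such bounds compare the brighter group's mean with the lowest signal that stood well above background on each array of the dim group, or the dim probe's own signal where that is higher. A probe can be dim above that lowest signal, as Sorl1 was on KO LPS 20 h 4 (-4.47, against -4.52). Each "at least" here holds by this definition only. At 6 h WT read -4.87, -4.53, -4.58 and -4.79 and KO -6.76, -4.74, -4.29 and -5.58, 1 array in each group well above background, and the groups overlapped (difference -0.65, adjusted p = 0.649). At 20 h all 6 WT arrays were dim, from -7.41 to -6.02, and 5 of 6 KO arrays were dim, from -6.72 to -4.47, so no fold is given. WT on saline was at least 3.42-fold above WT at 20 h.

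Fras1, the matrix protein, gave signal in WT on saline and at 6 h and in no other group. The WT saline mice ranged from -4.46 to -2.55 (median -3.39), with 5 of 6 arrays well above background, and all 6 KO saline arrays were dim, from -6.23 to -5.05. At 6 h WT read -4.34, -3.04, -3.69 and -3.26, 3 of 4 well above background, and KO -6.10, -5.58, -4.83 and -5.65, all dim. The genotypes did not overlap on saline or at 6 h. At 6 h the fitted difference of -1.96 ± 0.37, in which the dim KO arrays enter, passed (adjusted p = 0.0074, limma). By the bounds, which were not tested, KO was at least 3.18-fold lower at 6 h and at least 3.23-fold lower on saline. All 8 arrays well above background were WT, so the probe passed the filter only through the groups where it is high. At 20 h all 12 arrays were dim, and WT on saline was at least 5.11-fold above WT at 20 h. The 6 h call held with each array left out. It ended with the slide as a block (adjusted p = 0.0635) and with only the groups compared (adjusted p = 0.134). Each of the 3 scan dates held a single mouse of a genotype at 6 h, so fits within a date cannot decide it.

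Dct, the melanin enzyme, had the largest genotype difference of the 10 genes at 6 h and at 20 h, by probe A_51_P116838, at chr14:118412048-118412105. At 6 h the 4 WT mice read 1.73, 0.14, 1.66 and 1.89 and the 4 KO mice -6.94, -7.82, -3.80 and -5.67, 3 of these dim. Every KO mouse lay below every WT mouse, and the difference of -7.41 ± 1.55, in which those 3 dim arrays enter, passed (adjusted p = 0.015, limma). The probe passed the filter only through WT arrays, so this call is no support for the count at 6 h. The difference is described further here. The difference was -7.12 without the 2 KO arrays that stand apart (adjusted p = 0.024) and -7.28 without WT LPS 6 h replicate 1 (adjusted p = 0.0515). Within the scan dates it was -9.47, -6.62 and -7.87, each with a single mouse of a genotype, so these fits cannot decide the call. At 20 h WT ranged from -1.98 to 1.39 (median -0.34), all 6 well above background, and KO from -8.05 to -5.10, all 6 dim, so KO was at least 40.9-fold lower.

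On saline Dct was high in some mice and low in others in both genotypes. WT replicates 1, 2 and 3 read 1.09, 0.93 and 0.81, replicate 5 -2.90, and replicates 4 and 6 were dim at -7.17 and -7.11. In KO replicates 1 and 5 read -1.88 and -1.99 and the other 4 were dim, from -7.95 to -6.31. The second Dct probe, printed above, was dim on all 32 arrays, with group means between -6.93 and -6.07, so it shows none of this. Of 8 melanocyte marker names Si and Slc45a2 were measured, while Tyr, Tyrp1, Mlana and Oca2 were on the array and did not pass the filter. The summed log2 signal of those 2 was -2.76 to -1.49 in WT and -2.90 to -2.71 in KO at 6 h, and at 20 h -3.75 to -2.95 in WT and -3.73 to -2.86 in KO. These low sums overlapped, at 6 h only between -2.76 and -2.71. The median KO-minus-WT difference of the 2 markers was -0.40 at 6 h and -0.20 at 20 h. Over 10 measured melanin and melanocyte genes beside Dct it was -0.285 at 6 h and 0.078 at 20 h, with 0 called. The part of melanocyte content in the Dct values was not tested.

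Moxd1, the monooxygenase, was high in WT at 20 h. There WT ranged from -3.38 to 1.09 (median -0.90), all 6 well above background, against -5.94 to -4.93 in KO (median -5.28), 4 of 6 dim, a difference of -4.47 ± 0.89 with no overlap. At 6 h the order was turned without passing the test: WT read -6.41, -6.33, -4.59 and -5.95 and KO -6.18, -5.77, -1.85 and -2.32, a difference of 1.79 (adjusted p = 0.612). KO replicates 3 and 4 were the high ones. On saline 4 of 6 WT arrays and 5 of 6 KO arrays were dim, and WT replicates 2 and 3 stood apart at -1.71 and -0.26.

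Tiam2, the Rac exchange factor, was lower in KO on saline and at 20 h and not at 6 h. On saline WT ranged from -3.91 to 2.51 (median 0.42) and KO from -5.92 to -1.42 (median -4.48), with overlap and a difference of -4.06 ± 0.80. At 6 h WT read -4.67, -3.14, -5.04 and -5.89 and KO -3.67, -4.30, -3.84 and -3.62, a difference of 0.83 (adjusted p = 0.859). The WT mean was -0.08 on saline and -4.68 at 6 h, and the KO mean -4.14 and -3.86. At 20 h WT ranged from -1.40 to 1.54 (median -0.15) and KO from -4.62 to -3.08 (median -3.78), without overlap and a difference of -3.70 ± 0.80.

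Man2a2, the Golgi mannosidase, differed at 20 h by 1 of its 4 probes. By the array's design that probe, A_52_P287219, and A_51_P385952 belong to a different transcript record than A_52_P531068 and A_52_P659270. The last 2 lie at chr7:87507834-87508043 and chr7:87505575-87505634. Whether the records are the same mRNA was not tested, so the signal of A_52_P287219 may not be that of the mannosidase mRNA. A_52_P287219, at chr7:87494011-87494070, ranged from -0.35 to 0.73 in WT (median 0.19) and from 0.89 to 1.49 in KO (median 1.33), a difference of 1.06 ± 0.19 with no overlap. On saline and at 6 h the same probe differed by -0.32 and -0.05 (adjusted p at 6 h = 0.977). The other 3 probes differed at 20 h by 0.18 (A_51_P385952), 0.08 (A_52_P531068) and -0.93 (A_52_P659270, well above background on 6 of 32 arrays), each with overlap. At 6 h A_51_P385952 read -0.33, -0.31, -0.19 and 0.26 in WT and -0.58, -0.68, -0.66 and -0.51 in KO, apart but not past the test (-0.47, adjusted p = 0.659). Between the first probe and the others the correlation of deviations was 0.38, -0.18 and 0.08.

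**Figure D3:**
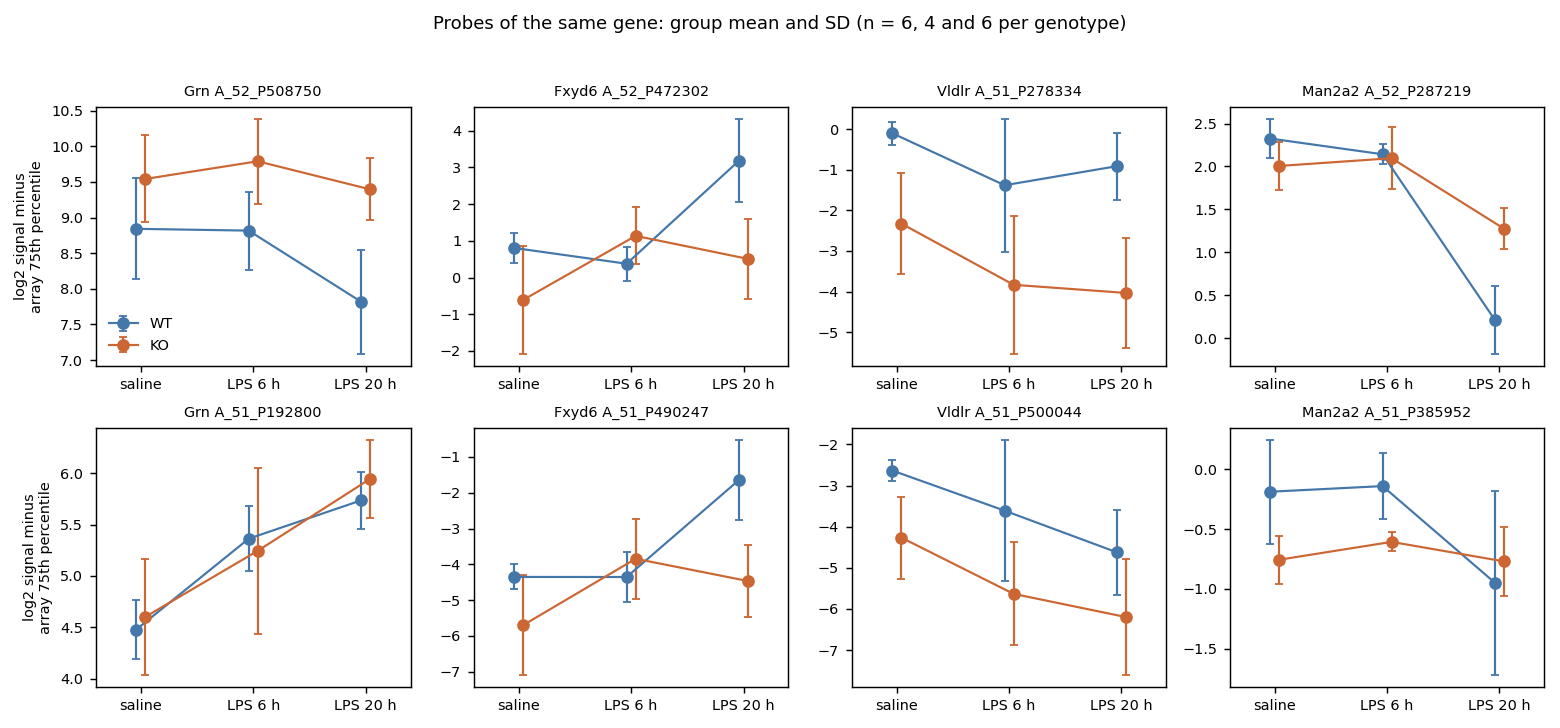
Group mean and SD of the log2 signal minus the array's 75th percentile for 2 probes each of Grn, Fxyd6, Vldlr and Man2a2 on saline, at LPS 6 h and at LPS 20 h in WT (blue) and KO (orange), with 6, 4 and 6 mice per genotype. The Fxyd6 probes follow each other, the WT means of the Vldlr probes go from -1.38 to -0.91 at A_51_P278334 and from -3.61 to -4.62 at A_51_P500044 between 6 h and 20 h, and 1 of the 2 Grn and 1 of the 2 Man2a2 probes drawn part the genotypes at 20 h.

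Averaged over both genotypes, the genes moved in both directions with LPS. At 20 h 11 of the 16 probes passed the test against saline, 4 higher and 7 lower, where 47.4% of all probes tested passed (22.4% higher and 25% lower), and the median member difference was -0.42 against -0.03 over all probes. Fras1 and Sorl1, among the 7 lower, would not have passed the filter without WT on saline, where they are high. Their calls are therefore no support for the count. At 6 h against saline 3 of 16 passed, 1 higher and 2 lower (32.8% of all probes; 14.5% higher and 18.3% lower). At 20 h against 6 h 9 of 16 passed, 4 higher and 5 lower (40.1%, with 19.9% and 20.1%). Fras1 and Sorl1 are among these 5 as well. The averages weight both genotypes equally and share their arrays with the genotype differences. Within scan dates 1 and 2 the count at 20 h against saline was 7 and 6, and scan date 3 held no WT saline array. Of the 26 calls in the 4 tested comparisons, 17 held with each single array left out.

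Neutrophil markers were lower on all WT saline arrays than on all WT arrays after LPS, while the KO ranges overlapped. The summed log2 signal of 7 measured markers of 9, among them S100a8, S100a9 and Ngp, was -0.07 to 3.17 in WT and 0.21 to 8.34 in KO on saline. It was 5.75 to 6.58 in WT and 3.13 to 8.08 in KO at 6 h, and 5.73 to 7.04 in WT and 6.09 to 7.39 in KO at 20 h. Their part in the member differences below was not tested.

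Man2a2, Vldlr, Fras1 and Sorl1 were among the calls that were lower at 20 h than on saline. The Fras1 call (adjusted p = 1.02e-07, limma) rests on WT, at least 5.11-fold lower at 20 h, since its KO arrays were dim at both times. The Fras1 probe passed the filter only through WT on saline and at 6 h, so this fall is no support for the count. Man2a2 A_52_P287219 fell by 1.42 ± 0.13 (adjusted p = 1.88e-09) and A_52_P531068 fell by 0.46 (adjusted p = 0.0155), while A_51_P385952 read -0.39 (adjusted p = 0.0762) and A_52_P659270 0.46 (adjusted p = 0.506). At 6 h the first probe still read within its spread of saline (-0.05, adjusted p = 0.843), and it fell after that (-1.38 between 6 h and 20 h, adjusted p = 3.34e-08). The Sorl1 average passed too (-1.02 ± 0.24, adjusted p = 0.00106), but the WT mean went from -3.82 to -6.54 and the KO mean, mostly of dim arrays, from -6.38 to -5.70. 5 of its 8 arrays well above background were WT on saline, without which it would not have passed the filter. Vldlr fell by 1.26 (adjusted p = 0.0269) at A_51_P278334 and by 1.96 (adjusted p = 0.000621) at A_51_P500044.

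The fall of Vldlr was already present at 6 h for the first probe, at -1.40 (adjusted p = 0.0396), with -1.17 (adjusted p = 0.0711) for the second. Without KO LPS 20 h 4 and 6 the 20 h difference was -0.89 at the first probe (adjusted p = 0.113) and -2.30 at the second (adjusted p = 7.1e-05). The first probe's call also ended without KO LPS 20 h 6 alone or KO saline 5 alone (-1.04 and -1.05, adjusted p = 0.0588 in each). The first probe's 6 h call also ended with any of 9 single arrays left out, with the highest adjusted p, 0.132, without WT LPS 6 h replicate 4. Without KO saline 1 and KO LPS 6 h 1 both probes passed at 6 h, at -1.95 (adjusted p = 0.00183) and -1.55 (adjusted p = 0.015), and the member count there was 5 in place of 3.

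Kcnh2 also fell by 20 h, by 1.07 ± 0.26 (adjusted p = 0.00136), and was 0.84 lower than at 6 h (adjusted p = 0.0227, or 0.0762 without WT LPS 6 h replicate 3). The Tiam2 average fell by 2.16 ± 0.63 at 6 h (adjusted p = 0.00892), with the WT mean going from -0.08 to -4.68 and the KO mean from -4.14 to -3.86, and was 2.33 higher at 20 h than at 6 h (adjusted p = 0.0041), back near saline (0.16, adjusted p = 0.839). Dct did not pass in any of the 3 time comparisons (1.52, 0.36 and -1.16, adjusted p = 0.259, 0.772 and 0.371), with standard errors of about 0.89 to 1.00.

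Fxyd6, Moxd1 and the second Grn probe rose. Fxyd6 rose by 1.75 ± 0.40 (adjusted p = 0.000579) at A_52_P472302 and by 1.97 ± 0.40 (adjusted p = 0.000161) at A_51_P490247, dim on all 6 KO saline arrays, between saline and 20 h. Between its group means most of the rise was in WT, from 0.81 to 3.19, against -0.61 to 0.51 in KO. Moxd1 rose by 1.79 ± 0.63 (adjusted p = 0.0206), with WT going from -4.17 to -0.94 and KO from -5.75 to -5.41. For both genes the genotype contrast at 20 h was part of the choice, so these unequal rises carry no test.

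Grn A_51_P192800 rose in both genotypes. It was 0.76 ± 0.21 higher at 6 h (adjusted p = 0.00575) and 1.30 ± 0.19 higher at 20 h (adjusted p = 2.05e-06) than on saline, from 4.48 to 5.74 in WT and from 4.60 to 5.94 in KO. The bright probe A_52_P508750 read -0.58 at 20 h against saline (adjusted p = 0.0529) and -0.70 against 6 h (adjusted p = 0.0455), and at 6 h against saline 0.11 (adjusted p = 0.794). The second of these values passed by little and ended with any of 13 single arrays left out. The 6 h rise of A_51_P192800 was 0.46 after quantile normalization (adjusted p = 0.0685), which moved the median of all probes by -0.11 in that comparison.

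KO LPS 20 h 4 and 6, the knockout arrays least like their group at that time, took different places among the members. Array 6 was the highest of the 6 KO arrays for 7 of 16 probes, both Grn, both Fxyd6 and 2 Man2a2 probes among them, and for Vldlr A_51_P500044, where it read -3.69 against a group mean of -6.20. For the other Vldlr probe it was the lowest, -6.22 against -4.03. Array 4 was the lowest for both Fxyd6 probes, at -1.09 and -5.79, and the highest for Sorl1, at -4.47, and 9 of its 16 member probes were dim, more than on any other KO array at 20 h. The 2 Vldlr probes correlated at r = 0.49 in deviations over 32 arrays and at r = 0.79 without these 2.

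The genotype differences at 20 h without these 2 arrays were close to those with all 6 for most probes. Moxd1, dim on 4 of the 6 KO arrays, read -4.35 in place of -4.47, Tiam2 -3.70 in both, Kcnh2 2.09 in both and Fxyd6 A_52_P472302 -2.61 in place of -2.68. Man2a2 A_52_P287219 read 0.96 in place of 1.06 and Grn A_52_P508750 1.38 in place of 1.58. The Vldlr probes moved most, to -2.38 at A_51_P278334 and to -2.24 at A_51_P500044.

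Markers of other liver cells stood apart on the same 2 arrays. Array 4 had the highest summed signal of 8 Kupffer cell and macrophage markers in its group, 7.86 on the log2 scale in a group range that starts at 4.82, and of 5 B cell markers, 0.84 in a range that starts at -1.89. It was also highest for endothelial (5.03) and stellate cell markers (6.98), and lowest for cholangiocyte (3.82), lung (-1.60), neural (-0.70) and acinar markers (-1.84). Array 6 had the highest sum of 6 cholangiocyte markers, 7.07 in a range that starts at 3.82, and of 6 hepatocyte markers, 11.2. It was also highest for T and NK cell (2.035), muscle (5.78) and melanocyte markers (-2.86), and lowest for endothelial (3.42) and stellate cell markers (5.78). Their part in the member values was not tested.

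**Figure D4:**
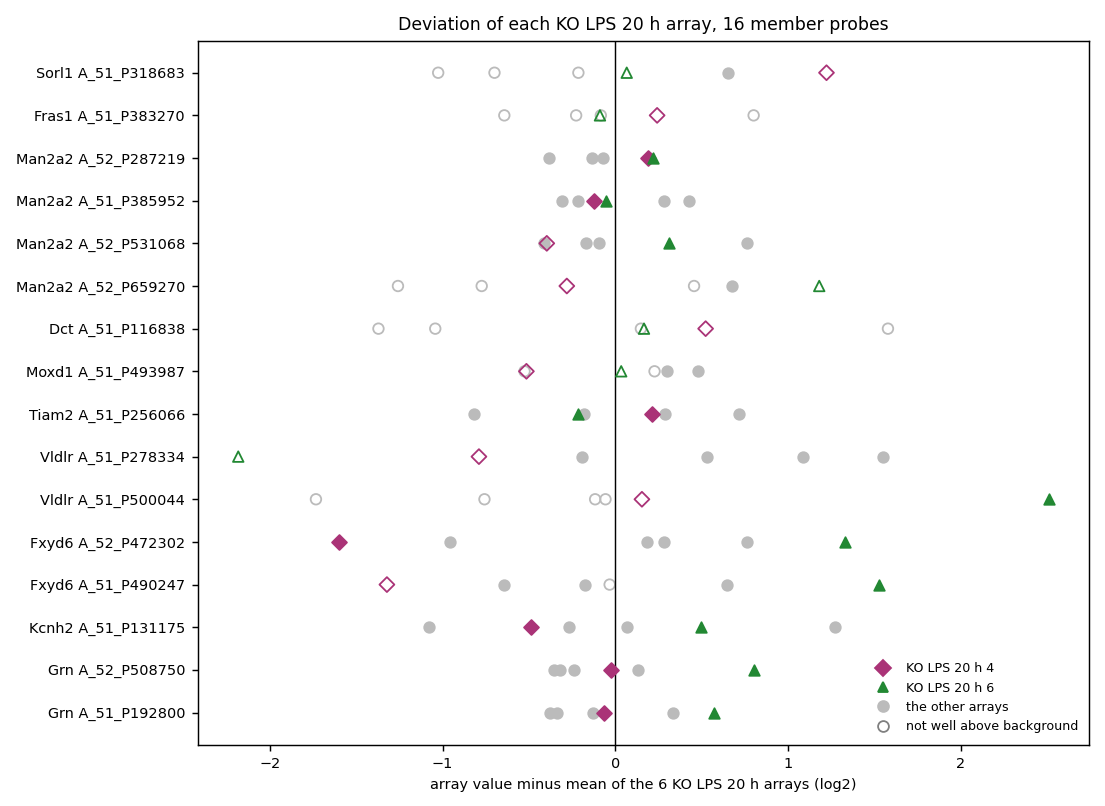
Value of each of the 6 KO LPS 20 h arrays minus the mean of the 6 (log2) for the 16 tested probes; diamonds are array 4, triangles array 6, circles the other arrays, and open symbols are dim. Array 6 lies farthest to the right for 7 probes and farthest to the left for Vldlr A_51_P278334.

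For the brightest probe of each gene, the most similar other genes were sought by the correlation of deviations from the 6 group means over 32 arrays, among 13954 named genes. The closest were Syt10 (r = 0.93) and H1fx (0.92) for Grn A_52_P508750, Mnd1 (0.81) and Ppp1ca (0.75) for Man2a2, and Rce1 (0.81) and Ccdc103 (0.74) for Vldlr. Sorl1 was closest to C4b (0.79) and Tmem176a (0.74), Kcnh2 to Hs6st3 (0.78) and Rpl21 (0.73), Tiam2 to Fam160b1 (0.75) and Glod4 (0.67), and Fxyd6 to Rheb (0.70) and Fbxo6 (0.69). The weakest were those of Dct, Moxd1 and Fras1, led by Defb8 (0.70), Kcnj15 (0.65) and Ube3c (0.57), where dim arrays enter. All values share the arrays and their scaling and are descriptions.

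Relatives of the 10 genes, 117 measured genes in 9 lists, were followed through the same fit by the brightest probe of each. None of the 117 was called between genotypes at 6 h or at 20 h in limma, where 1.23% and 0.323% of all genes were called. At an unadjusted p under 0.05 in limma there were 8 of the 117 at 6 h (6.84%, against 11% of all genes) and 14 at 20 h (12%, against 7.58%). With LPS at 20 h 25 of them rose and 41 fell (47.6% of all genes were called, 21.6% higher and 26% lower), and their median difference was -0.19 against -0.06 over all genes. Of 20 lipoprotein and VPS10 receptor genes beside Vldlr and Sorl1, 3 rose and 9 fell; Reln, a ligand of the VLDL receptor and also a stellate cell marker, fell by 1.91 (adjusted p = 6.86e-09) and the receptor Lrp4 fell by 1.41 (adjusted p = 1.66e-05). Of 5 genes of the Fraser complex and its integrins, 1 rose and 2 fell, the largest Itga8, which fell by 4.70 (adjusted p = 6.53e-10). Of 16 N-glycan enzymes 3 rose and 4 fell, with the branching enzyme Mgat5 1.43 higher (adjusted p = 3.74e-07).

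The remaining lists were mixed as well. Of 23 progranulin-related and lysosomal genes 8 rose and 6 fell; Slpi, a protease inhibitor that binds progranulin, was 5.41 higher (adjusted p = 3.09e-08) and the lysosomal tetraspanin Cd63 3.15 higher (adjusted p = 3.26e-10). Of 11 potassium channel genes 2 rose and 5 fell, with Kcnj8 2.51 higher (adjusted p = 5.78e-07) and Kcnk5 falling by 2.39 (adjusted p = 0.000382). Of 8 FXYD and sodium pump genes 3 rose and 3 fell; Fxyd5 was 1.35 higher (adjusted p = 2.1e-08) and Fxyd1 fell by 1.30 (adjusted p = 2.58e-07). Of 8 copper monooxygenase and catecholamine genes none rose and 4 fell, led by Comt1, which fell by 2.46 (adjusted p = 3.07e-08). Of 10 melanin and melanocyte genes 1 rose and 5 fell, among them the receptor gene Kit, which fell by 1.47 (adjusted p = 9.28e-06), and of 17 Rac and Rac exchange factor genes 4 rose and 4 fell.

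Promoters of 8 of the 10 genes, 12 in all, were found in a table of RefSeq promoters on GRCm38.p6 that runs from 250 bases before to 50 bases after each start. They were searched on both strands for 4 octamers of the E2F type, TTTCCCGC, TTTCGCGC, TTTGCCGC and TTTGGCGC. None of the 12 held one, where 744 of 32851 promoters (2.26%) did. That says only that these letters are not in these windows.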

How the data were processed

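Liver RNA of 32 mice was hybridised to 1-colour Agilent mouse arrays (Cy3), 1 per mouse, in 6 groups. The intensities are the processed signals of each array, made with Agilent Feature Extraction 10.7.1.1 per the file headers, that is, background-subtracted and not yet scaled between arrays. A table that the authors deposited holds processed log2 values of 23916 probes, 12 of the 17 member probes among them. Its array medians were 8.80 to 8.91 and each of its 32 columns matched its own array best (r from 0.98 to 0.991), while the sources used here do not give its normalization method. It served as an alternative.

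Control spots and 84 to 232 outlier spots per array were left out, each array's 75th percentile over noncontrol spots was subtracted on the log2 scale, and spots of a probe were averaged. Probes marked well above background by the scanner software on 4 or more arrays entered 1 limma fit (R 4.3.3, limma 3.58.1) of all 32 arrays in 6 groups, with p-values adjusted over all probes. The limma fit was tested on simulated data for KO against WT at 6 h. The scaling, the filter and the bounds were not simulated. The 9 slides and 3 scan dates were tried as blocks, and scan dates also one at a time. Replicate numbers of the labels did not pair the mice, so no block entered.

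The genes and lists were chosen with earlier results of these data known. The text names all 10 genes, probe by probe; of each related list, genes among the 3 with the largest called difference at 20 h against saline; and the genes most correlated with each member's brightest probe. Families use the brightest probe of a gene. Bounds, leave-outs and other scalings are described beside the values they touch.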

Additional observations from a re-analysis of the deposited data

Results flagged for a closer look

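Within 96 groups of member values examined, 6 held a mouse far from the rest of its group by Dixon's gap test, and chance marks about 1 in 20 groups. In Dct A_51_P116838, WT LPS 6 h replicate 2 read 0.14 where the next mouse read 1.66. In Vldlr A_51_P278334, KO LPS 6 h replicate 1 read -1.28 where the next read -4.64, and in Vldlr A_51_P500044, KO saline replicate 5 read -2.35 where the next read -4.26. In Fxyd6 A_52_P472302, WT LPS 6 h replicate 4 read -0.31 where the next read 0.54. Grn A_51_P192800 had 2 such mice, KO LPS 6 h replicate 1 at 4.04 (next 5.51) and WT LPS 20 h replicate 2 at 5.19 (next 5.71).

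For Fxyd6 A_52_P472302 all 4 WT mice at 6 h read below the saline mean of other WT mice, 0.81, and all 4 KO mice above that of other KO mice, -0.61. The difference between the responses was 2.17 on the log2 scale. 3 of the 4 WT values lay within the WT saline range, 0.02 to 1.14. This difference was not tested, since its saline arrays entered the choice of the genes.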

How the results depend on the processing

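No member result changed direction past its threshold, and of the 26 calls 4 held under each alternative tried: Fras1, Man2a2 A_52_P287219, Vldlr A_51_P500044 and Grn A_51_P192800 at 20 h against saline. The Fras1 probe passed the filter only through WT on saline and at 6 h, so its call is no support here. It also met fewer alternatives, 17 against 19 for Man2a2 A_52_P287219. For KO against WT at 6 h, 3 member probes were called; the count was 1 with the slide as a block, 1 with only the groups compared, 1 at an adjusted p under 0.01, 6 with array weights, 0 within scan date 1, 0 within date 2 and 0 within date 3, and 1 to 4 with 1 array left out. For 6 h against saline, 3 were called; the count was 0 within scan date 1, 6 with array weights and 5 without KO saline 1 and KO LPS 6 h 1, and 2 to 5 with 1 array left out, the 5 without KO LPS 6 h 1. For 20 h against saline, 11 were called; it was 7 genes with the brightest probe of each gene, 7 within scan date 1 and 6 within date 2, and 10 to 13 with 1 array left out. For 20 h against 6 h, 9 were called; the count was 5 with no filter on dim probes, 4 at an adjusted p under 0.01, and 2, 3 and 0 within the 3 scan dates, and 5 to 10 with 1 array left out, the 5 without WT LPS 20 h 6 or KO LPS 20 h 3. At an unadjusted p under 0.05 in limma, the counts of 0 within scan dates were 3, 6 and 4 for KO against WT at 6 h, 5 for 6 h against saline and 6 for 20 h against 6 h; these fits hold 12, 12 and 8 arrays. Each scan date held a single mouse of at least 1 genotype at 6 h, so counts within a date that involve 6 h cannot decide a call. For the slide block and the array weights the cause was not tested.

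Same-numbered mice did not deviate together (median r 0.01 over 72 pairs, against -0.01 over 352 other pairs, with 2 of 32 arrays most like their own number). With the replicate block the counts were 3, 3, 11 and 5 in the same order; the 20 h against 6 h calls of Moxd1, Fxyd6 A_52_P472302 and both Grn probes ended (adjusted p = 0.0573, 0.136, 0.0675 and 0.0642). Quantile normalization moved the median of all probes by -0.11 at 6 h against saline and by 0.13 at 20 h against 6 h, and median centring moved that of KO against WT by 0.15 at 6 h and by -0.13 on saline. Sorl1, Fras1, Dct and Moxd1 are limited by dim arrays: a bound is given where all arrays of a group are dim, and other differences include the dim arrays counted beside them.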
